A study of Homo sapiens with 6 samples.

Results

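Fibronectin and the integrin subunits that bind it were followed in U87 cells, an established human glioblastoma line (genotype WT in the labels), sorted by how much of a fluorescent cyclic peptide they had taken up. All cells had received 500 nM of the rhodamine-tagged peptide EPP6 for 1 h and were detached before sorting. RNA came from the brightest 30% of cells (high uptake, 3 libraries numbered 2, 3 and 4) and from the dimmest 30% (low uptake, 3 libraries with the same numbers). The members were 10 of the 25680 gene symbols in the count files, taken by name: FN1, the ligand, and ITGA4, ITGA5, ITGA8, ITGA9, ITGAV, ITGB3, ITGB5, ITGB6 and ITGB8, its receptors. They were selected on the difference in counts between these high-uptake and low-uptake libraries, so the values of that contrast are a description and no p-value is given for a member. Of the 10, 7 passed the filter on low counts and were tested with all other genes. The remaining 3, ITGA8, ITGA9 and ITGB6, stood below 0.5 CPM (counts per 1000000 counts of the TMM-scaled library) in every library.

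Fibronectin is a secreted glycoprotein that cells pull into fibrils on their surface. Integrins are heterodimers of an alpha and a beta subunit: alpha5 and alpha8 pair with beta1, alphaV pairs with beta1, beta3, beta5, beta6 or beta8, and all of these can recognise the short sequence RGD in fibronectin or in other matrix proteins. Alpha4 and alpha9, paired with beta1, read other sites, the LDV site of the CS1 segment and the EDGIHEL loop of the EDA domain, both of which are added or left out by splicing. Cells take up fibronectin and its integrins by endocytosis and return much of the receptor to the surface.

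The stretches of FN1 that encode these sites are given first because the receptors divide by which of them they read. Capitals mark the codons of the named site, with 30 bases of the transcript on each side. They were read from the longest complete FN1 coding transcript of GENCODE 29, which has 46 exons and encodes 2477 residues with 1 RGD.
FN1 RGD: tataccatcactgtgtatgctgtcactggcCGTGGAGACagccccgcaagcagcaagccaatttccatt
FN1 EDA loop: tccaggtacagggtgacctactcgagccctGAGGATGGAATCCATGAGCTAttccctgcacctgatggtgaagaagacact
FN1 CS1 LDV: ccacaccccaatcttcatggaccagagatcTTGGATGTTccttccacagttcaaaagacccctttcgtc
The RGD codons lie in coding exon sequence at chr2:215384063-215384071 on the minus strand of GRCh38, in exon 30 of that transcript, at residues 1615 to 1617. The EDA loop lies at chr2:215380944-215380964 in exon 33 and the LDV codons at chr2:215372311-215372319 in exon 40. Of 11 complete FN1 coding transcripts in that annotation, 10 hold the RGD, 5 the EDA loop and 6 the LDV. The counts are sums over a gene, so they do not show which of these forms a library held.

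FN1 stood more than 3-fold higher in high uptake. It had 7110, 6960 and 5771 CPM in high replicates 2, 3 and 4, against 1813, 1958 and 1831 CPM in low replicates 2, 3 and 4. The lowest high-uptake library lay far above every low-uptake library, and FN1 alone took 0.576% to 0.705% of all counts in high uptake against 0.184% to 0.196% in low uptake. The means were 6614 ± 734 CPM in high and 1868 ± 79.1 CPM in low uptake (SD, n = 3 each), a log2 fold change of 1.82 (SE 0.0883). Between libraries of the same number, the ratio of high to low uptake was 3.92 for number 2, 3.55 for number 3 and 3.15 for number 4. FN1 is a long transcript, at 8975 bases in the authors' gene model, and its log2 fold change was 1.75 once trends of the libraries with gene length were removed and 1.83 once those with GC content were. In bulk RNA, a larger share of cells that make fibronectin and more FN1 RNA in each cell cannot be told apart.

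**Figure D1:**
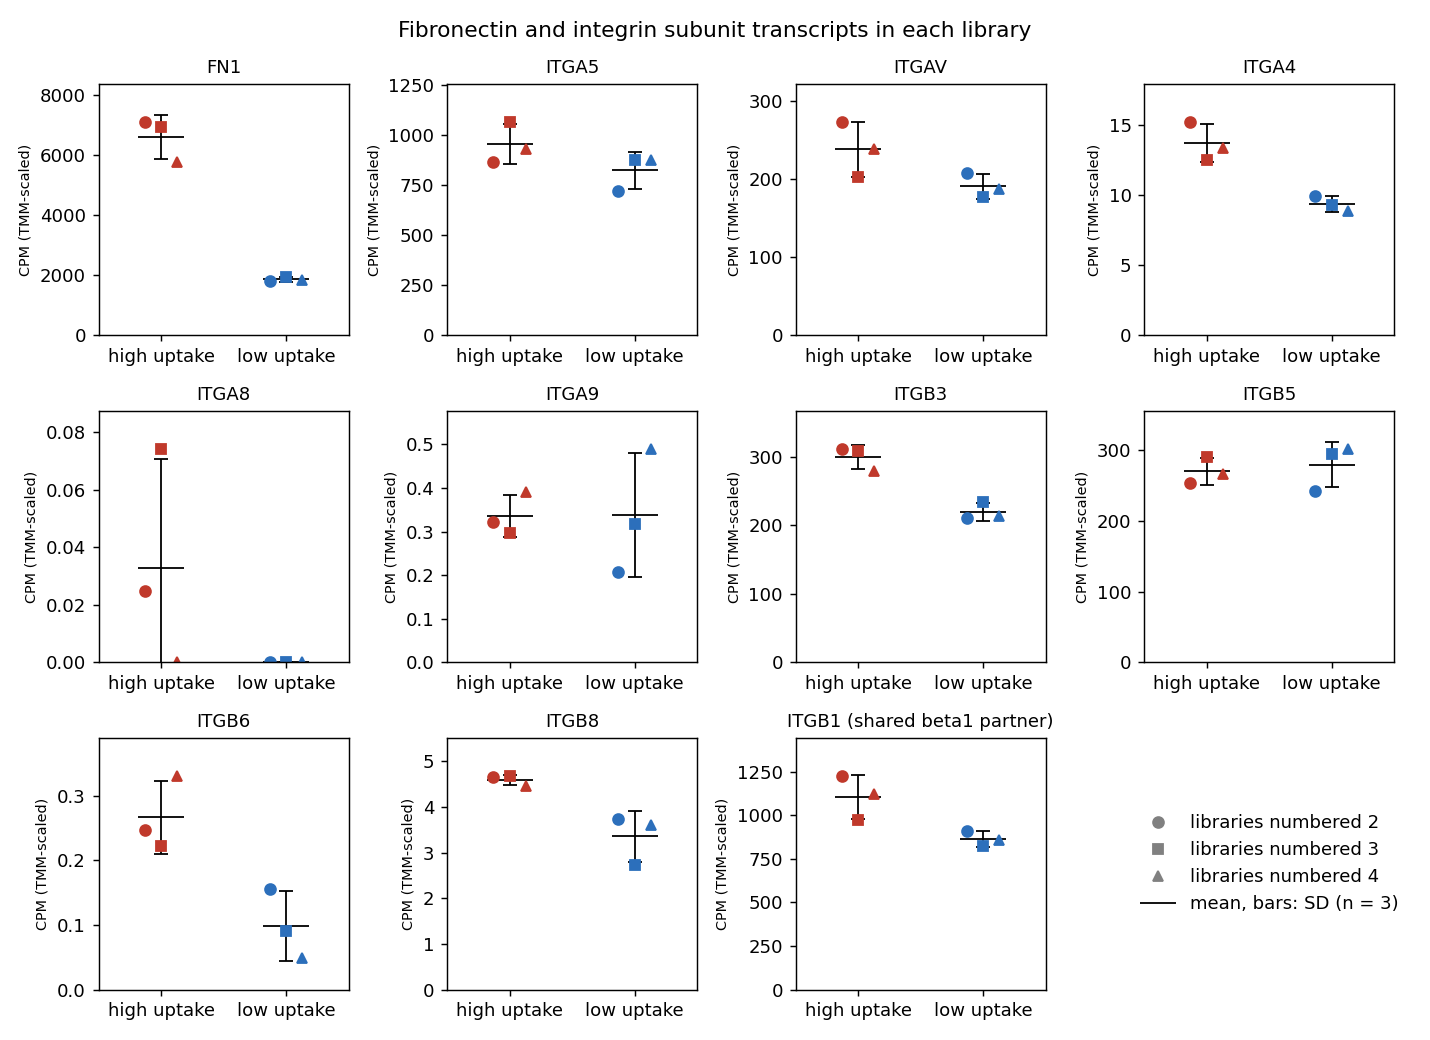
Level of each member and of ITGB1 in every library, as CPM scaled by TMM on a linear axis from 0, with high uptake left of low uptake, marker shapes for the library number, and bars for the mean and SD of 3 libraries. FN1, ITGA4, ITGB3, ITGB6, ITGB8 and ITGB1 show no overlap between the groups, while the points of ITGA5, ITGAV, ITGA8, ITGA9 and ITGB5 overlap.

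In the fit over all genes, 3 of the 7 tested members were past the threshold (adjusted p under 0.05 in edgeR, Benjamini-Hochberg over all tested genes), all higher in high uptake: FN1, ITGA4 and ITGB3. Of all 14598 genes tested, 4.29% were past it, 3.03% higher and 1.26% lower. Nothing is read from the members' count, since they were chosen with this contrast known. The median log2 fold change of the 7 tested members was 0.44, and that of the 6 tested integrins 0.38, beside -0.00 for all tested genes. No member was lower past the threshold in edgeR, DESeq2 or limma, or at an unadjusted p under 0.05 in edgeR. With the GC trend removed, 5 members were past the threshold, with ITGA5 and ITGAV added, beside 18.8% of all genes, 10.7% higher and 8.17% lower (1504 and 1152 genes, against 442 and 184 as tested). With the length trend removed, the members past it numbered 3, beside 3.33% of all genes, 2.35% higher and 0.98% lower. Over all 10 members, 5 were higher in every high-uptake library than in any low-uptake library (FN1, ITGA4, ITGB3, ITGB6 and ITGB8). ITGB6 was not tested, so 4 of the 7 tested members were so placed, beside 13% of all tested genes.

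Of the 5 alpha members, ITGA5 was the most abundant in TPM (transcripts scaled for length), and of the 3 tested it had the smallest log2 fold change. It encodes the alpha subunit of the classical fibronectin receptor. It had 869, 1067 and 933 CPM in high replicates 2, 3 and 4, against 720, 877 and 877 CPM in low replicates 2, 3 and 4. The groups overlapped, since high replicate 2 lay just under low replicates 3 and 4, and each library numbered 2 was the lowest of its group. The log2 fold change was 0.21 (SE 0.0990) and did not pass as tested. Between libraries of the same number the ratio was 1.21, 1.22 and 1.06 for numbers 2, 3 and 4.

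ITGAV, the alpha subunit that pairs with beta1, beta3, beta5, beta6 or beta8, had 273, 202 and 238 CPM in high replicates 2, 3 and 4, against 208, 177 and 187 CPM in low replicates 2, 3 and 4. High replicate 3 lay below low replicate 2, so the groups overlapped, and here the libraries numbered 2 were the highest of their groups. Its log2 fold change was 0.32 (SE 0.108). It did not pass as tested, and without high replicate 3 it did, at a log2 fold change of 0.42.

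ITGA4 encodes the alpha4 subunit, best known on leukocytes and on neural crest derivatives. Its level was low, with 15.2, 12.5 and 13.4 CPM in high replicates 2, 3 and 4, against 9.96, 9.27 and 8.85 CPM in low replicates 2, 3 and 4. The groups did not overlap, and the log2 fold change was 0.56 (SE 0.114), the largest of the tested integrins among the members. It no longer passed when high replicate 2 (log2 0.47) or 4 (0.58) or low replicate 3 (0.55) or 4 (0.52) was left out.

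ITGA9 and ITGA8 were at the limit of detection. ITGA9 had 13, 4 and 13 counts in high replicates 2, 3 and 4, against 8, 7 and 10 counts in low replicates 2, 3 and 4, or 0.336 ± 0.0482 CPM in high and 0.338 ± 0.142 CPM in low uptake (SD, n = 3 each). Its exons overlap those of ITGA9-AS1 on the opposite strand by 535 bases in GENCODE 29, and no source used here gives the strand setting of the counter, so counts there may belong to either. ITGA8, whose best known ligand is nephronectin, had 1, 1 and 0 counts in the high-uptake libraries and 0 in each low-uptake library. A count of 0 allows up to 0.0899 CPM in high replicate 4 and up to 0.0788, 0.137 and 0.148 CPM in low replicates 2, 3 and 4 (3 counts of the total, counting error only). At this depth no difference in ITGA8 was detectable.

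Among the beta subunits ITGB3 was higher in high uptake and ITGB5 was not. ITGB3, which pairs with alphaV here and with the platelet subunit alphaIIb elsewhere, had 311, 308 and 279 CPM in high replicates 2, 3 and 4, against 210, 234 and 213 CPM in low replicates 2, 3 and 4. The groups did not overlap. The log2 fold change was 0.45 (SE 0.0789), a 1.37-fold difference, and it no longer passed without low replicate 4 (log2 0.43). In GENCODE 29 another gene that is not in the count files shares 2266 exonic bases with ITGB3 on the same strand.

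ITGB5, which pairs only with alphaV and also binds vitronectin, had 253, 290 and 265 CPM in high replicates 2, 3 and 4, against 242, 294 and 301 CPM in low replicates 2, 3 and 4. The groups overlapped fully. Its log2 fold change was -0.05 (SE 0.0949), and 0.01 without low replicate 4.

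ITGB8 and ITGB6 encode the partners with which alphaV is known to release TGF-beta from its latent form. ITGB8 had 4.65, 4.67 and 4.47 CPM in high replicates 2, 3 and 4, against 3.75, 2.73 and 3.62 CPM in low replicates 2, 3 and 4. The groups did not overlap, but the low-uptake libraries spread widely and the log2 fold change of 0.44 (SE 0.159) did not pass. ITGB6, normally an epithelial subunit, had 10, 3 and 11 counts in high replicates 2, 3 and 4, against 6, 2 and 1 counts in low replicates 2, 3 and 4. The levels were 0.267 ± 0.0562 CPM in high and 0.0983 ± 0.0535 CPM in low uptake (SD, n = 3 each), without overlap but on 1 to 11 counts a library, and the gene was not tested.

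ITGB1, the beta subunit through which alpha4, alpha5, alpha8 and alpha9 act, is no member but completes the receptors. It had 1222, 973 and 1121 CPM in high replicates 2, 3 and 4, against 911, 822 and 858 CPM in low replicates 2, 3 and 4. The groups did not overlap, and ITGB1 rose by 0.36 on the log2 scale (SE 0.0887, edgeR adjusted p = 0.0464). That call was lost with the gene length trend removed (adjusted p = 0.0610) and with upper quartile scaling (0.0521). Leaving out high replicate 2 (0.138) or 4 (0.119) or low replicate 3 (0.171) or 4 (0.175) lost it as well, over a range of 9.22e-06 to 0.175 for all alternatives.

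**Figure D2:**
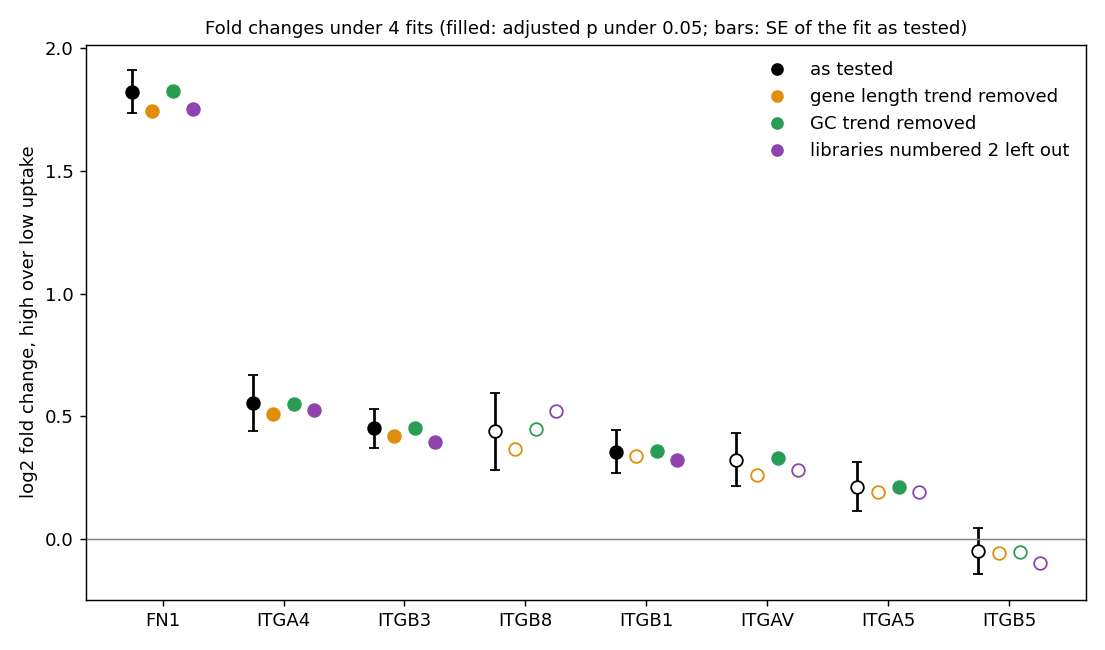
Log2 fold change of high over low uptake for the 7 tested members and ITGB1 in 4 fits, with filled points for an adjusted p under 0.05 and bars for the SE of the fit as tested. FN1 stands apart near 1.82, ITGA4 and ITGB3 are filled in all 4 fits, ITGA5 and ITGAV are filled with the GC trend removed, and ITGB5 sits at or just below 0.

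Levels were compared between genes per length, in the authors' deposited TPM values. FN1 led with a median of 1061 TPM over the 6 libraries, followed by ITGA5 at 498, ITGB5 at 202, ITGB3 at 128 and ITGAV at 69.2 TPM. ITGA4 at 4.50 and ITGB8 at 1.16 TPM were far lower, and ITGA9 at 0.195, ITGB6 at 0.0979 and ITGA8, listed at 0 in 4 of the 6 libraries, came last. Most neighbours in this order did not overlap in any library, from ITGA5 (413 to 609 TPM) to ITGB5 (175 to 213), ITGB3 (104 to 156) and ITGAV (58.1 to 93.0). Exceptions were FN1 in low uptake (487 to 518 TPM), which fell within the range of ITGA5, and the lowest members, where ITGB6 (0.0249 to 0.176) overlapped both ITGA9 (0.127 to 0.294) and ITGA8 (0 to 0.0258). ITGB1 stood at 478 to 735 TPM, a range that overlapped that of ITGA5.

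**Figure D3:**
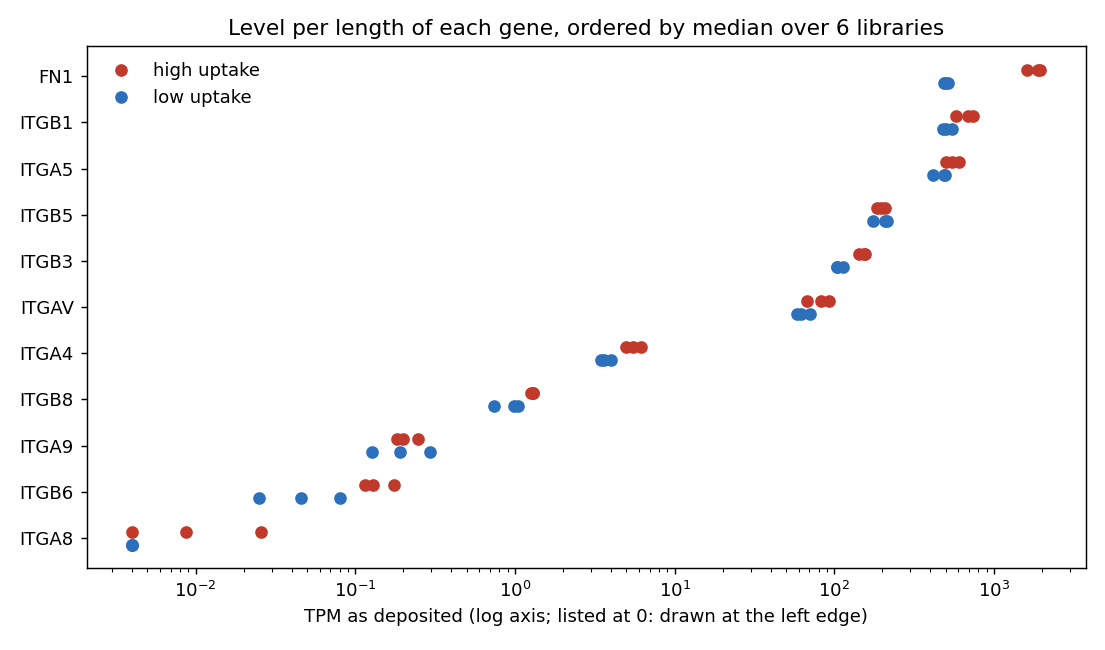
TPM as deposited, on a log axis, for each member and ITGB1 in the 3 high-uptake (red) and 3 low-uptake (blue) libraries, ordered by the median over all 6. The levels span from 1948 TPM for FN1 in high replicate 2 to 0 for ITGA8. FN1 lies above ITGA5 and ITGB1 in every high-uptake library. In low uptake its range (487 to 518 TPM) overlaps those of ITGA5 (413 to 493) and ITGB1 (478 to 544).

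Within a library, the ratio of TPM values put ligand and receptor side by side. FN1 was at 3.88, 3.09 and 2.93 times ITGA5 in high replicates 2, 3 and 4, against 1.19, 1.06 and 0.988 times in low replicates 2, 3 and 4. The balance of the alphaV partners also differed: ITGB3 was at 0.847, 0.732 and 0.725 times ITGB5 in high replicates 2, 3 and 4, against 0.598, 0.548 and 0.488 times in low replicates 2, 3 and 4. Neither ratio overlapped between the groups. ITGA5 made up 83.5% to 89.3% of the summed TPM of the 5 alpha members in high uptake and 84.7% to 88.8% in low uptake, ranges that overlapped. These ratios rest on the contrast by which the members were proposed and were not tested.

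**Figure D4:**
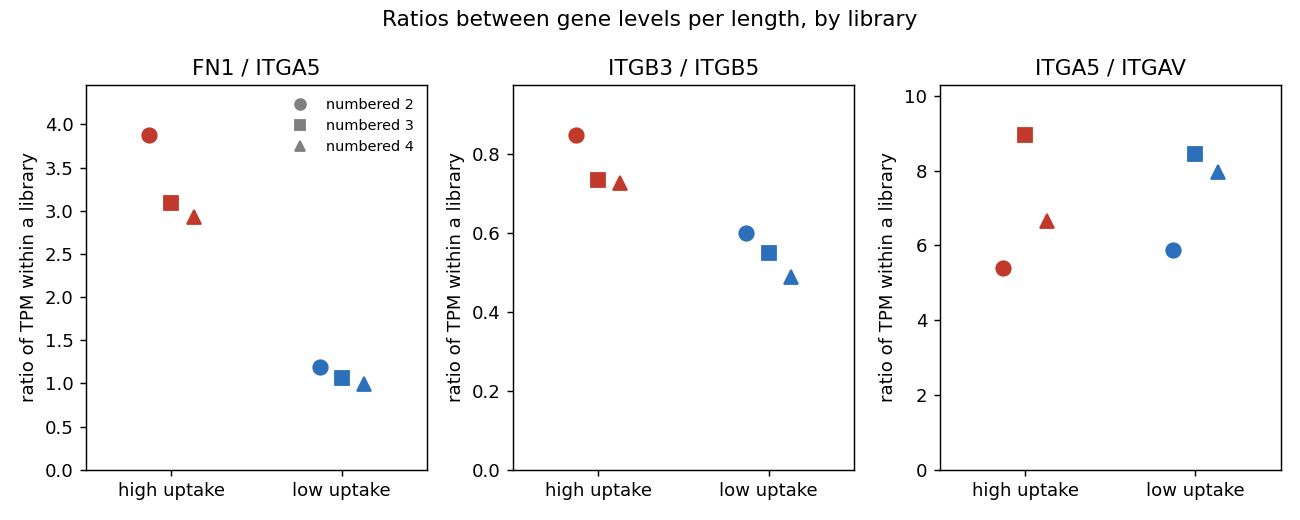
Ratio of deposited TPM values within each library for FN1 over ITGA5, ITGB3 over ITGB5 and ITGA5 over ITGAV, with axes from 0 and marker shapes for the library number. The first 2 ratios are higher in all 3 high-uptake libraries than in any low-uptake library, and the third overlaps, from 5.41 to 8.95 in high uptake and from 5.88 to 8.43 in low uptake.

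The authors' deposited table, a list of 2305 gene symbols with no values or direction, holds 6 of the 10 members: FN1, ITGA4, ITGA5, ITGAV, ITGB3 and ITGB8. It also holds ITGB1, and 15.8% of all genes tested here. ITGB5 and the 3 members near 0 are not in it. Of the 626 genes past the threshold here 99% are in that list, and these make up 26.9% of it.

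The genes whose levels moved most like FN1 over the 6 libraries, by Pearson correlation of log2 CPM among 9788 tested genes of at least 10 CPM, were ACAD11 (r = 0.998), BLOC1S5-TXNDC5 (0.997), PNMA1 (0.997), ATOH8 (0.997) and FBN1 (0.997). ACAD11 is an acyl-CoA dehydrogenase, ATOH8 a transcription factor and FBN1 fibrillin, while BLOC1S5-TXNDC5 is a read-through gene, and how the counter treated reads it could share with TXNDC5 is not known here. Of the members, ITGB3 was closest to FN1 at r = 0.979 (rank 91), then ITGA4 at 0.945, ITGAV at 0.728, ITGA5 at 0.652 and ITGB5 at -0.17. Those most like ITGB3 were HERC2 (0.994), CSMD2 (0.994), RRAGA (0.993), MAGED1 (0.993) and WIPI1 (0.992). The points are the same 6 libraries in 2 groups, so r takes in the difference between the groups whatever its size. PNMA1 stood at 146 ± 2.32 CPM in high and 129 ± 0.520 CPM in low uptake.

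A list of matrix partners of fibronectin, with collagens, fibrillin and cross-linkers but also proteases, a protease inhibitor and surface receptors, had 10 of 20 tested genes that rose. The other 10 did not pass, and the median log2 fold change was 0.44 against -0.00 for all tested genes. Of all genes, 4.29% passed, 3.03% higher and 1.26% lower. This list and those below were written with earlier results of these data known, so nothing is read from their counts or medians. COL1A2, a type I collagen chain, had 1315, 1269 and 1029 CPM in high replicates 2, 3 and 4, against 426, 503 and 466 CPM in low replicates 2, 3 and 4 (log2 1.37, SE 0.101, edgeR adjusted p = 9.36e-05). FBN1, whose microfibrils are laid down on fibronectin, averaged 666 ± 53.4 CPM in high and 340 ± 4.92 CPM in low uptake, with a log2 fold change of 0.97 (adjusted p = 1.53e-04). LOX, which cross-links collagen and elastin, averaged 212 ± 20.6 CPM in high and 118 ± 12.6 CPM in low uptake, with a log2 fold change of 0.85 (adjusted p = 0.00123). The other 7 were COL1A1, COL5A1, IGFBP3, TIMP2, SPARC, SDC2 and MMP2, with log2 fold changes from 0.37 for MMP2 to 1.16 for COL5A1. Of these, MMP2 is a protease, TIMP2 a protease inhibitor, IGFBP3 a binding protein of insulin-like growth factors and SDC2 a surface proteoglycan. SDC4, the syndecan that works beside alpha5beta1 at adhesions, averaged 177 ± 11.7 CPM in high and 163 ± 14.6 CPM in low uptake (log2 0.11, adjusted p = 0.555). In edgeR as tested, DESeq2 and limma no gene of this list was lower past the threshold, nor was one at an unadjusted p under 0.05 in edgeR. DESeq2 called 13 genes of the list higher and limma 10, and edgeR with the GC trend removed 14, beside 10.7% of all genes higher in that last fit. Markers of fibroblasts or pericytes moved in part with FN1 and these genes: of 8 listed, FAP, PDGFRB and LUM rose and 4 more were tested without passing. These 4 were PDGFRA (log2 0.52), ACTA2 (0.48), THY1 (0.16) and RGS5 (-0.19). The 8 summed to 165 to 183 CPM in high and 100 to 117 CPM in low uptake, with DCN, the decorin gene, at most 0.519 CPM in any library. Their part in the result was not tested.

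A list of other RGD ligands of the same integrins, without those counted as matrix partners above, did not follow fibronectin as a group. Of 13 tested, 2 rose and 2 fell, beside 3.03% of all genes higher and 1.26% lower, and the list median on the log2 scale was -0.03. TGFBI, a secreted matrix protein with an RGD near its end, averaged 2701 ± 167 CPM in high and 1583 ± 211 CPM in low uptake, with a log2 fold change of 0.77 (edgeR adjusted p = 0.00191). EDIL3, a secreted ligand of alphaV integrins, named after its values were seen, rose by 0.67 on the log2 scale (adjusted p = 0.0445). The EDIL3 call was lost with no filter (0.199), a filter of 50 counts (0.0506) and the length trend removed (0.0588). Leaving out high replicate 2 (0.0814) or 4 (0.0727) or low replicate 2 (0.0651), 3 (0.193) or 4 (0.158) lost it too. SPP1, which encodes osteopontin, a ligand of alphaV, alpha4 and alpha9 integrins, had 227, 233 and 242 CPM in high replicates 2, 3 and 4, against 317, 331 and 315 CPM in low replicates 2, 3 and 4 (log2 -0.46, SE 0.0701, adjusted p = 0.00470). FBN2, the second fibrillin, fell by 0.61 on the log2 scale (SE 0.0994, adjusted p = 0.00642). FBN1, the first fibrillin, rose (log2 0.97) but was counted with the matrix partners. The counts and median given here therefore depend on how genes were divided between the lists, and do not describe all RGD ligands. VTN, the vitronectin gene, stood at 0.210 to 0.371 CPM in high uptake and 0.259 to 0.342 CPM in low uptake, and NPNT, the nephronectin gene, had no count in any library. With the GC trend removed, 5 rose and 3 fell, beside 10.7% of all genes higher and 8.17% lower in that fit.

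Ligands read mainly by alpha4 or alpha9 were few. VCAM1, the endothelial ligand of alpha4beta1, had at most 0.0517 CPM, and 5 of 8 listed genes were tested. Of all genes tested, 3.03% were called higher and 1.26% lower. ADAM12, a membrane metalloprotease bound by alpha9beta1, averaged 357 ± 18.9 CPM in high and 273 ± 9.71 CPM in low uptake, a log2 fold change of 0.39 (edgeR adjusted p = 0.0143), and was the 1 call of the list. Its call was lost without high replicate 2 (adjusted p = 0.0548), low replicate 3 (0.0706) or low replicate 4 (0.0919), over a range of 1.22e-06 to 0.0919 for all alternatives. None was lower in edgeR, DESeq2 or limma, or at an unadjusted p under 0.05.

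Proteins at the integrin tail mostly did not pass. Of 26 tested, 2 rose, 1 fell and 23 did not pass (median log2 0.04), beside 3.03% of all genes higher and 1.26% lower. PARVA, the parvin that joins integrin-linked kinase to actin, averaged 157 ± 10.4 CPM in high and 117 ± 0.924 CPM in low uptake, a log2 fold change of 0.43 (edgeR adjusted p = 0.0120). KANK2, a talin-binding protein at the rim of adhesions, rose by 0.32 on the log2 scale (adjusted p = 0.0425). The KANK2 call was lost in 9 of 16 alternatives: with upper quartile scaling (0.0621), a filter of 50 counts (0.0563), the length trend removed (0.0904) and each of the 6 libraries left out in turn (0.0757 to 0.149). TNS1, a tensin of fibrillar adhesions, had 3.14, 4.15 and 3.18 CPM in high replicates 2, 3 and 4, against 4.66, 6.95 and 5.72 CPM in low replicates 2, 3 and 4 (log2 -0.75, SE 0.183, adjusted p = 0.0435). The TNS1 call was lost with a filter of 50 counts (0.0506). It was also lost without high replicate 2 (0.119) or 4 (0.155) or low replicate 3 (0.166) or 4 (0.124). TLN1, the talin that activates integrins, stood at 1013 ± 106 CPM in high and 980 ± 59.0 CPM in low uptake (log2 0.05, adjusted p = 0.835). The list gave 1 call without high replicate 2 or high replicate 4 and 0 without low replicate 3 or low replicate 4. With the GC trend removed it gave 9 (7 higher and 2 lower), in a fit that called 18.8% of all genes (10.7% higher and 8.17% lower).

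Of 19 tested genes of integrin internalisation and recycling, 2 rose and 17 did not pass (median log2 0.07). The share of all genes higher was 3.03%. PRKCA, the kinase PKC-alpha, rose by 0.39 on the log2 scale (532 ± 32.8 CPM in high and 406 ± 14.1 CPM in low uptake, adjusted p = 0.0143) and NRP1, the neuropilin that promotes uptake of alpha5beta1, by 0.36 (603 ± 52.1 CPM in high and 470 ± 23.2 CPM in low uptake, adjusted p = 0.0310). The endocytic adaptor DAB2, which binds beta tails, stood at 68.7 ± 4.09 CPM in high and 74.3 ± 2.70 CPM in low uptake (log2 -0.11, adjusted p = 0.513). None was lower past the threshold in edgeR, DESeq2 or limma, or at an unadjusted p under 0.05. Both calls were lost without high replicate 2, low replicate 3 or low replicate 4 and 1 remained without high replicate 4. Adjusted p reached 0.0900 for PRKCA and 0.156 for NRP1, from 1.11e-06 and 5.09e-06 at the lowest over all alternatives.

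Among the other integrin subunits, 4 of 14 tested rose, beside 3.03% of all genes. They were ITGB1 (above), and ITGA11, ITGA2 and ITGA7, which bind collagens or laminins. ITGA11 averaged 62.6 ± 7.39 CPM in high and 35.8 ± 5.56 CPM in low uptake, a log2 fold change of 0.81 (edgeR adjusted p = 0.00529). ITGA2 rose by 0.52 and ITGA7 by 0.50 on the log2 scale (adjusted p = 0.00835 and 0.0156). The median log2 fold change was 0.26. None was lower past the threshold in edgeR, DESeq2 or limma, and 1 was at an unadjusted p under 0.05 in edgeR. ITGA3, a laminin-binding subunit whose 955 to 1136 TPM in high and 841 to 992 TPM in low uptake lay above every ITGA5 value, stood at 2102 ± 222 CPM in high and 1966 ± 203 CPM in low uptake (log2 0.10, adjusted p = 0.652). The list gave 2 calls without high replicate 2 or without low replicate 4, where ITGA7 did not pass either (adjusted p = 0.0518 and 0.0604).

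**Figure D5:**
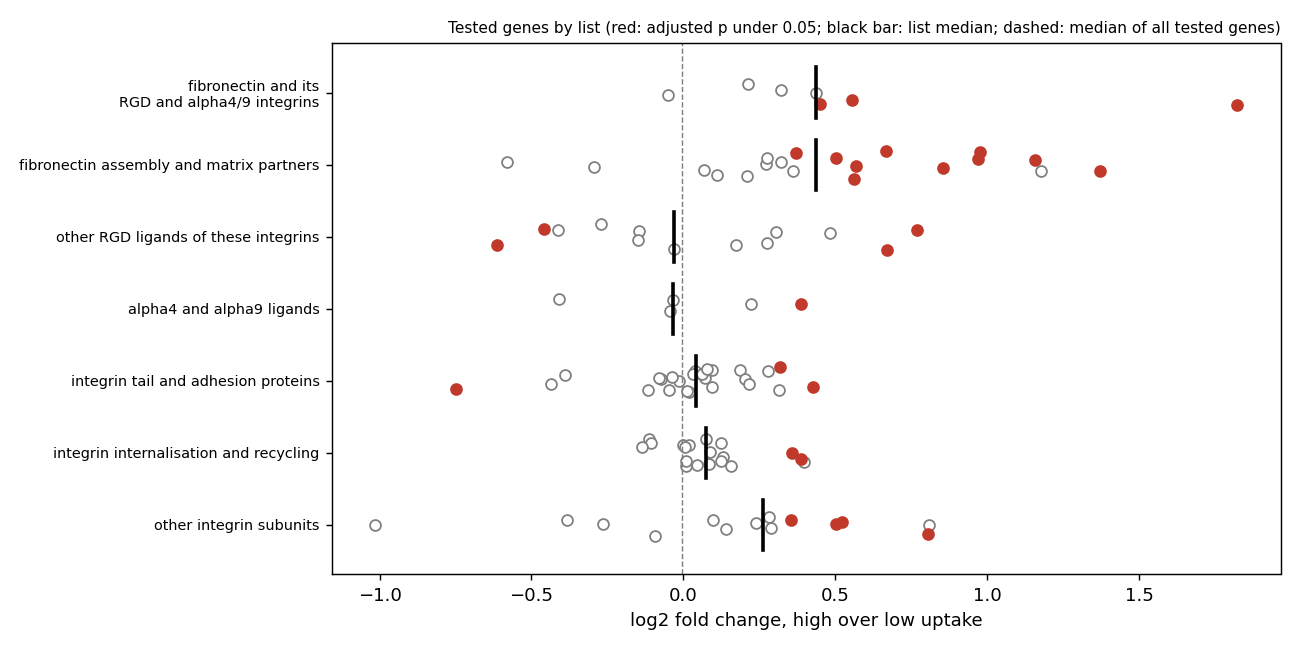
Log2 fold change of high over low uptake for every tested gene of the members and of 6 lists, 1 point a gene, with red points for an adjusted p under 0.05, black bars for each list's median and a dashed line for the median of all tested genes. The matrix partners lie mostly right of 0, with a median of 0.44, while the adhesion and recycling lists centre close to it.

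Upstream of FN1, the 250 bases before its start were read because FN1 and ITGA4 were the members past the threshold for which RefSeq's table (GRCh38.p14) has an entry. It has one for 8 of the 10 members. Capitals mark matches on either strand to the cAMP response element TGACGTCA or the GC box GGGCGG, and matches of the GC box overlap each other.
FN1 promoter: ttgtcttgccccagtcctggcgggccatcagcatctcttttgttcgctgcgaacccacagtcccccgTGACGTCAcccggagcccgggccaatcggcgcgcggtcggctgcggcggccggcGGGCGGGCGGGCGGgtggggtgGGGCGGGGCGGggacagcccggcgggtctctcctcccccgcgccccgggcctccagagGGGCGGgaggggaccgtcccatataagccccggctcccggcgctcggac
ITGA4 promoter: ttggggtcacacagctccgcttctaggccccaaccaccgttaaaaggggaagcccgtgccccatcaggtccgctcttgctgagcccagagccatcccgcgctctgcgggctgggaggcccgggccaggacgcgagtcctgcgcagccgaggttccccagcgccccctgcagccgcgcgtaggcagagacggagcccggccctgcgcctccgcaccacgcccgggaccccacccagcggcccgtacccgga
The first lies at chr2:215436069-215436318 on the minus strand and the second at chr2:181457136-181457385 on the plus strand. FN1 has 1 TGACGTCA, which begins 183 bases before the start and is held by 1.65% of 35116 promoter windows of this length, and 6 GC boxes, a motif held by 42.6% of them. ITGA4 has neither. Of the 8 members with an entry, FN1 was the 1 with TGACGTCA and 5 had a GC box. The AP-1 motif TGANTCA (6.57% of windows), TATAAA (10.7%) and the palindrome GTCTAGAC (0.182%) matched none of the 8, which says only that these letters are not in these windows.

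Total counts per library ranged from 13712263 to 40742857, and at that depth each member of at least 1 CPM rested on 60 counts or more. On the second principal component, with 31.5% of the variance, both libraries numbered 2 stood at one end (18.6 in high and 23.8 in low uptake, the others from -23.1 to -4.99). Without them 3 members were past the threshold, beside 788 of all genes (626 with all libraries). Nothing is read from that count of members either. Of the glioma markers, VIM (10138 to 11122 CPM in high and 9882 to 10525 CPM in low uptake) and CD44 were abundant, but SOX2 and S100B had at most 0.0517 CPM and GFAP at most 0.954 CPM in any library. CHI3L1 averaged 113 ± 10.9 CPM in high and 56.9 ± 20.6 CPM in low uptake (log2 0.99, edgeR adjusted p = 0.0890), without overlap. OLIG2 (1.01 and 1.39 CPM, log2 -0.46) and NES (19.9 and 22.5 CPM, log2 -0.18) went the other way. None of the 6 tested glioma markers passed in edgeR as tested. Neuronal genes summed to 50.2 to 54.6 CPM in high and 39.5 to 43.4 CPM in low uptake, with SNAP25 alone past the threshold and STMN2 at 0 in every library, and their part in the results was not tested either. Endothelial, immune and epithelial lists had no gene past the threshold in edgeR as tested, DESeq2 or limma (2, 1 and 0 at an unadjusted p under 0.05). With the GC trend removed, TEK was higher (log2 0.52) and KDR (-0.51) and CSF1R (-0.24) were lower past it. Of the immune list, PTPRC had at most 0.445 CPM, and AIF1 was at 0 in every library. Others of that list were expressed: CD68 at 258 to 283 CPM in high and 234 to 283 CPM in low uptake. CSF1R stood at 15.5 to 18.5 CPM in high and 18.2 to 20.9 CPM in low uptake.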

How the data were processed

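RNA was sequenced from U87 cells sorted for high or low uptake of a rhodamine-tagged peptide, 3 libraries each. Per the labels' protocols, libraries were made from column-extracted total RNA with a directional kit. The submitters' processing notes name fastp, STAR, featureCounts and build hg19. Their versions, the annotation and the strand setting were not found in any source used here. The authors deposited whole-number read counts per gene symbol, with FPKM and TPM columns, per the file headers. The authors' FPKM values were used to recover gene length, and the authors' TPM values for levels between genes. A deposited list of symbols holds no values.

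Groups and replicate numbers came from sample titles. The labels do not call the replicates separate cultures, so the p-values rest on a spread between libraries that may be technical. Counts were tested with edgeR 4.0.16 in R 4.3.3: filterByExpr defaults (minimum count 10, minimum total 15), which kept 14598 of 25680 genes, TMM scaling, and the robust quasi-likelihood F-test without covariates, two-sided, with Benjamini-Hochberg adjustment over all tested genes at 0.05. SE is the size of the log2 fold change divided by the square root of F. CPM values are TMM-scaled, and a prior count of 2 was added for log CPM. The fits were also run on simulated counts that held no effect of the replicate number, which cannot show how they handle such an effect here. Members and lists were chosen with earlier results of these data known, so no list was tested as a set. Alternatives were DESeq2 1.42.0, limma 3.58.1 (voom), other scalings and filters, a replicate block, libraries left out, and offsets that remove each library's spline trend (5 degrees of freedom) with length or GC content, the latter known for 96.6% of tested genes. Genes were named by rule: the 10 members, ITGB1, up to 3 of smallest p per list and the 5 most like FN1 and ITGB3, 35 in all, of which 32 were tested and 22 passed. Other genes in the text were chosen after their values were seen. Sequences came from GENCODE 29 and RefSeq with Biopython 1.88.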

Additional observations from a re-analysis of the deposited data

How the results depend on the processing

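FN1 kept its direction and its call in all 16 alternatives, with log2 fold changes from 1.75 to 1.92. ITGA4 and ITGB3 kept their direction in all 16, from 0.47 to 0.61 and from 0.40 to 0.51, and lost the call only with single libraries left out, as given beside them. ITGB5, not past the threshold in any alternative, ranged from -0.15 to 0.00676 with single libraries left out, the last without low replicate 4. Over these settings the members past the threshold numbered 1 to 4, the genes of the 6 lists 13 to 23 (24 with all libraries) and all genes 232 to 746 (626 with all libraries). Members numbered 1 without low replicate 4. With the GC trend removed there were 2656 genes, 5 members and 40 list genes. The replicate block in edgeR gave 3176 genes, 21.8% of those tested (1758 higher and 1418 lower), 6 members (ITGA5, ITGAV and ITGB8 added) and 41 list genes. With it, FBLN1 of the matrix partner list was lower (log2 -0.32), as was KDR of the endothelial list (-0.50), while TEK was higher (0.53). Nothing in the labels ties a number to a shared culture or day. Deviations from the group means correlated at 0.45, 0.30 and 0.09 for numbers 2, 3 and 4. Each high replicate thus correlated best with the low replicate of its own number. Low replicate 4, however, correlated better with high replicate 3 (0.22). The labels name no pairs, so the fit as tested took none, and whether the numbers pair the samples stays unknown. The cause of the larger counts was not tested. TPM, FPKM and CPM per kb rescale all genes of a library alike, so they are no check of the level order. Depth limits ITGA8, ITGA9 and ITGB6.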
